A study of Mus musculus with 24 samples.

Results

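Cd8a, Cd8b1, Gzma, Gzmb, Prf1, Ctsw and Ifng are 7 of the 770 genes (750 endogenous and 20 housekeeping) on the deposited table, and they were chosen by name as the CD8 chains and the effectors of cytotoxic lymphocytes. A CD8 T cell recognises its target with the CD8 alpha and beta chains beside the antigen receptor. It kills by releasing perforin, which opens the target membrane, and granzymes, serine proteases that then enter the target, and it secretes interferon gamma. NK cells, innate killers of the same logic, share the granzymes, perforin and interferon gamma but not the CD8 beta chain.

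The tumours grew in the mammary fat pad of female FVB-Neu-N mice implanted with the line NT2.5 at 7 to 8 weeks of age. All tumours therefore come from 1 implanted cell line. Treatment began 3 days after implantation and ran for 3 weeks. ENT, or entinostat, which blocks class I histone deacetylases, was given by mouth at 5 mg/kg each day in 0.5% methylcellulose, and each antibody at 100 µg per mouse. The arms were ENT+CTLA4+aHer2 (entinostat with antibodies to CTLA-4 and HER2, 2 tumours), ENT+PD1+CTLA4 (antibodies to PD-1 and CTLA-4, 4 tumours), ENT+CTLA4 (4), ENT+PD1 (4), ENT (4) and vehicle (methylcellulose and isotype antibodies, 4). A further 2 samples have titles that repeat those of ENT+PD1 replicates 1 and 2. They are called the repeat-titled pair, and they were described but not put in a comparison. The labels give whole tumour as the source, while the extraction text goes on to immune cell isolation. Which of these supplied the RNA was not settled here. The labels do not say that samples of an arm came from separate animals, so p-values measure the spread between these samples.

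Signals came from an nCounter instrument, which counts single RNA molecules with barcoded probes. The summed signal of the 770 genes, in units of the smallest step of each sample, was 226864 to 483421 (lowest in an ENT+CTLA4+aHer2 tumour), and no 2 samples were identical. Epcam, a marker of epithelial cells, ran from 3778 to 6927 in them. The samples ran on 2 cartridges of 12. Vehicle, ENT and ENT+PD1 were on the first, and every anti-CTLA-4 arm and the repeat-titled pair were on the second. The 8 negative control probes, which match no mouse RNA, averaged 7.0 to 10.9 counts per sample on the first cartridge and 4.0 to 6.0 on the second. A value was called above background when it exceeded the mean plus 2 SD of the scaled negative controls of its own sample. That limit was 10.8 to 25.3 (median 15.9) on the first cartridge and 8.54 to 16.9 (median 10.2) on the second. Any comparison between the cartridges sets arms against each other that differ in cartridge and treatment together, and these cannot be told apart. Probes differ in efficiency, so levels are compared between samples for one gene, never between genes.

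Most of the 7 genes were near background in most tumours. Of 168 values (7 genes in 24 tumours), 61 exceeded the limit of their sample. Ctsw did so in 24 of 24 tumours and Gzma in 23, whereas Ifng did so in 7, Cd8a, Cd8b1 and Prf1 in 2 each and Gzmb in 1. With the limit at 3 SD the count was 4 for Ifng, 1 for Prf1 and 0 for Gzmb, and with the limit at the highest negative control probe it was 10 for Ifng and 3 for Prf1. Of all 770 genes, 59.7% exceeded the limit in every tumour, 18.7% in 7 or fewer and 13.4% in 2 or fewer. In 14 tumours 2 of the 7 genes stood above the limit, in 7 tumours 3 did, and in 1 tumour only 1 did. The last 2 tumours stood apart with 5 and 6 genes above it: ENT+PD1+CTLA4 replicate 1 and ENT+CTLA4 replicate 6. In such bulk samples, fewer cells of a type and less RNA per cell cannot be told apart.

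**Figure D1:**
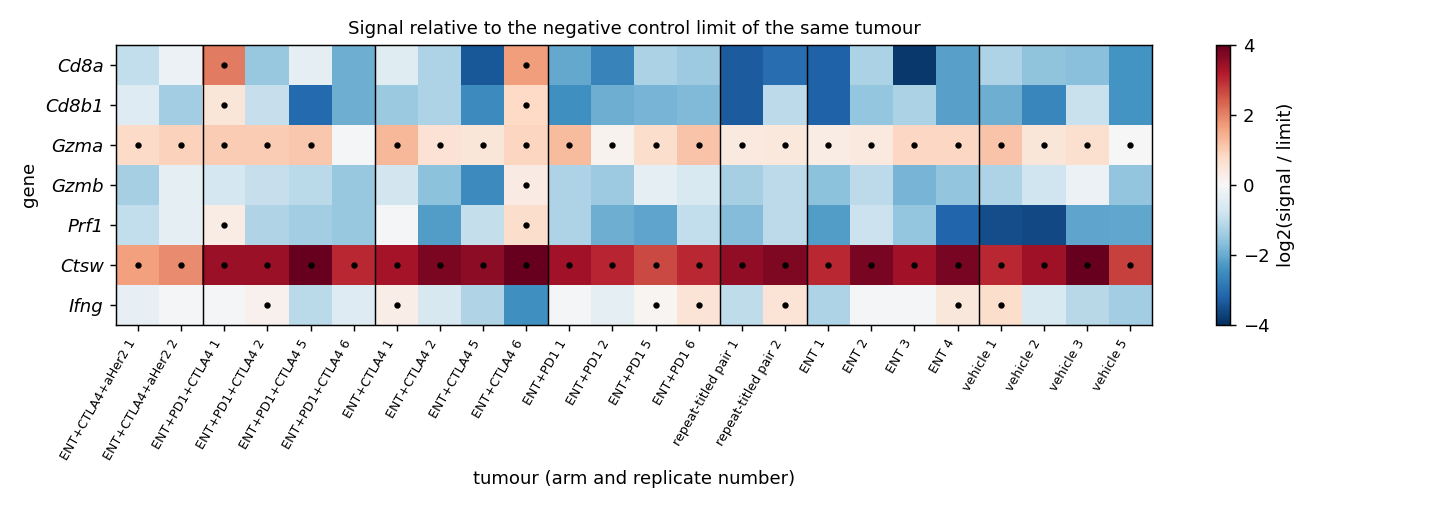
Heat map of log2(signal divided by the limit of the same tumour) for the 7 genes (rows) in the 24 tumours (columns, by arm), with the limit at the negative control mean plus 2 SD and the colour scale from -4 to 4. Black dots mark the 61 values above the limit: the rows of Ctsw (24 dots) and Gzma (23) are nearly full, and the other rows hold 1 to 7 dots.

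The alpha chain of CD8, Cd8a, was far above background in only those 2 tumours. In ENT+CTLA4+aHer2 it measured 8.50 and 11.6, below the limits of 16.9 and 13.6. In ENT+PD1+CTLA4 it measured 51.9, 3.53, 6.5 and 3.24 (replicates 1, 2, 5 and 6). In ENT+CTLA4 it measured 6.16, 4.17, 1.00 and 27.2 (replicates 1, 2, 5 and 6). The values of 51.9 and 27.2 were 4.18 and 3.17 times the limit of their tumours, and the other tumours of both arms were below theirs. ENT+PD1 tumours had 4.60, 2.45, 10.5 and 5.19 (replicates 1, 2, 5 and 6), the repeat-titled pair 1.02 and 1.24, and ENT tumours 1.94, 4.64, 1.01 and 3.41. Vehicle tumours had 6.92, 5.71, 3.36 and 4.57 (replicates 1, 2, 3 and 5). All of these 14 tumours were below their limits, and values there have no order.

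The beta chain, Cd8b1, which pairs with the alpha chain on the classical cytotoxic T cell, exceeded the limit in the same 2 tumours. It was 17.3 in ENT+PD1+CTLA4 replicate 1 and 14.8 in ENT+CTLA4 replicate 6, or 1.39 and 1.72 times the limit. The other 3 tumours ran from 1.00 to 5.29 in ENT+PD1+CTLA4 and from 1.82 to 4.17 in ENT+CTLA4. Elsewhere Cd8b1 ran from 5.16 to 11.9 in ENT+CTLA4+aHer2, from 3.45 to 7.02 in ENT+PD1, from 1.94 to 6.05 in ENT and from 2.85 to 5.88 in vehicle. The repeat-titled pair had 1.02 and 4.98. In RefSeq's mouse annotation no protein-coding gene lies between Cd8a and Cd8b1.

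Perforin, Prf1, exceeded the limit in the same 2 tumours as both chains. It was 15.1 in ENT+PD1+CTLA4 replicate 1 and 14.0 in ENT+CTLA4 replicate 6, or 1.22 and 1.63 times the limit, and it was below the limit in the other 22 tumours. With the limit at 3 SD only the second of them stayed above it, and with the limit at the highest negative control probe 1 more tumour joined. Prf1 in both tumours was under the median limit of the first cartridge (15.9), as was the lower of the 2 Cd8b1 values above the limit. Prf1 was 8.50 and 10.3 in ENT+CTLA4+aHer2, 4.08 to 8.04 in ENT+PD1, 3.05 and 4.98 in the repeat-titled pair, 1.70 to 6.19 in ENT and 1.38 to 5.71 in vehicle. Granzyme B, Gzmb, the granzyme that activates caspases in the target, exceeded the limit only in ENT+CTLA4 replicate 6, at 10.9 against a limit of 8.57. In ENT+PD1+CTLA4 replicate 1 it was 7.57 and not above its limit.

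**Figure D2:**
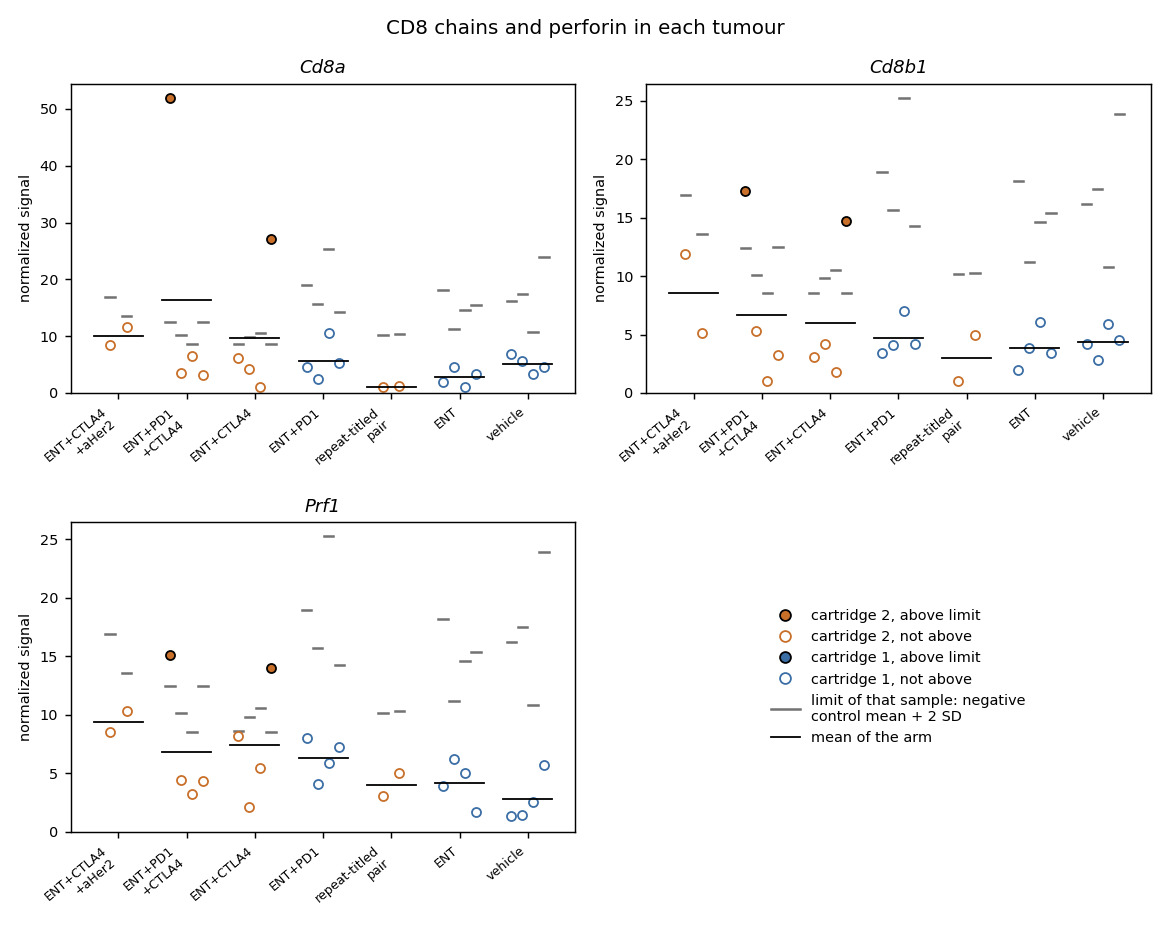
Normalized signal of Cd8a, Cd8b1 and Prf1 in each tumour, by arm, with grey dashes at each tumour's own limit, black lines at arm means and filled points above the limit. The same pair of cartridge 2 tumours is filled in all 3 panels (Cd8a 51.9 and 27.2), and all 12 tumours of cartridge 1 lie below their limits. The median limit is 15.9 on cartridge 1 and 10.2 on cartridge 2.

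The 2 tumours with CD8 signal also had high values of other immune transcripts. Cd3g, a chain of the T cell receptor complex, was 339 in ENT+PD1+CTLA4 replicate 1 and 179 in ENT+CTLA4 replicate 6, the 2 highest of the 24 tumours, and Cd3d (221 and 127) and Cd3e (155 and 66.8) were highest there too. Cd4, the co-receptor of helper T cells, was 96.3 and 34.2. Ms4a1, which encodes the B cell protein CD20, was 195 and 128 in them and at most 45.6 in the others. The summed level of the 4 dendritic cell markers on the table was 745 and 426, also the 2 highest. Of the 3 of these markers tested, 2 were higher and 1 lower in ENT+CTLA4 than in vehicle, a comparison across the cartridges. The lower marker, Xcr1, was called (-1.58 ± 0.37, limma adjusted p = 0.0368, with 1.45% of all genes called). It was also called in limma's F test (limma adjusted p = 0.0341, with 3.22% of all genes called). In the 2 tumours with CD8 signal the summed level of 6 NK genes was 70.3 and 46.8, ranking 9 and 19 of 24. Only 2 of the 6 exceeded the limit in each tumour, and background was higher on the first cartridge. These ranks therefore do not settle whether NK markers were high. On the second cartridge, which held both tumours, the highest sum was 73.1, in ENT+CTLA4+aHer2 replicate 1. Of the 6 NK genes, 3 were tested, and Klra7 was called in comparisons across the cartridges. It was lower in ENT+PD1+CTLA4 than in vehicle (-2.44 ± 0.58, limma adjusted p = 0.0357) and ENT+PD1 (-2.77 ± 0.58, 0.0116). Those comparisons called 2.09% and 3.22% of all genes. All 3 NK genes tested were lower in the first of them, and 2 of the 3 in the second. Myeloid markers were high in the 2 tumours with CD8 signal. Summed levels were 2999 and 1724 for the 4 neutrophil markers (ranks 2 and 4) and 2534 and 2280 for the 6 macrophage markers (ranks 3 and 5). The part of B cell, dendritic cell, neutrophil or macrophage RNA in the high CD8 values was not tested.

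In 2 other tumours CD3 values were high and the CD8 chains were at background. ENT+PD1 replicates 5 and 6 had the next highest Cd3g values (97.1 and 126), with Cd4 at 32.8 and 52.9. Cd8a there was 10.5 and 5.19, below limits of 25.3 and 14.3, on a cartridge whose negative controls were higher. ENT+CTLA4+aHer2 replicate 2 had 11.6 for Cd8a, below its limit of 13.6.

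**Figure D3:**
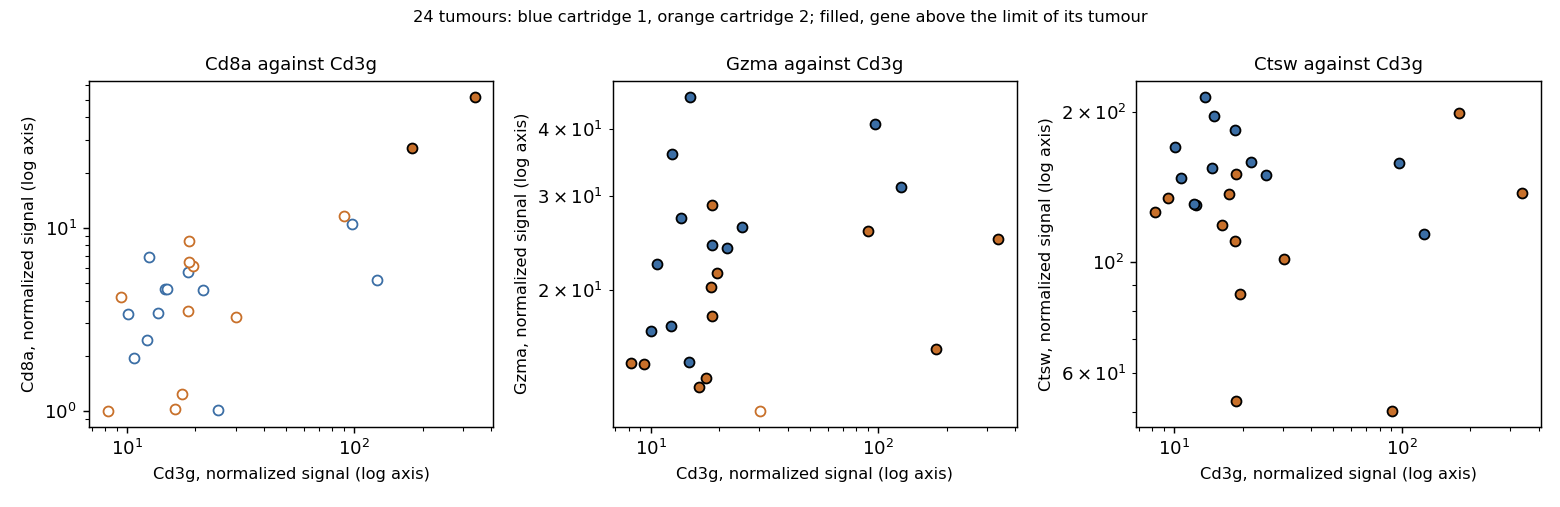
Cd8a, Gzma and Ctsw (vertical, log axis, normalized signal) against Cd3g (horizontal, log axis) in 24 tumours, blue for cartridge 1 and orange for cartridge 2, filled where the gene exceeded the limit of its tumour. Cd8a is filled at the 2 highest Cd3g values (339 and 179) and nowhere else, while the highest Ctsw value (215) lies at low Cd3g. Gzma was highest in ENT+PD1 replicate 1 (46.0), and ENT+PD1 replicate 5, among the tumours highest in Cd3g, came next (41.0).

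Promoters were available in RefSeq's table for 5 of the 7 genes (build GRCm38.p6, 250 bases before to 50 after the start). They are shown for Cd8a and Prf1, which were above background in the same tumours, and for Gzma, which was above it in nearly all. Capitals mark 3 short words named after the transcription factor families that bind them in T cells: TGTGGT or its reverse complement ACCACA (RUNX), AGGTGT or ACACCT (T-box, the family of T-bet and Eomes) and AGGAAG or CTTCCT (ETS). Both strands were searched, and no marked words overlap. Cd8a lies at chr6:71373177-71373476 on the plus strand, Prf1 at chr10:61297586-61297885 on the plus strand and Gzma at chr13:113100932-113101231 on the minus strand.
Cd8a: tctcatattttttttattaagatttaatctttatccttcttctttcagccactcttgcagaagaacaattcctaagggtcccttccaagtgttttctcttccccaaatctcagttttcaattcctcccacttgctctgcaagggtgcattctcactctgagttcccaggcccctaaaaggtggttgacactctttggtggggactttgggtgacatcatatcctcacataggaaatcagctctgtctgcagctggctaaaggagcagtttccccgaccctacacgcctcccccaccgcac
Prf1: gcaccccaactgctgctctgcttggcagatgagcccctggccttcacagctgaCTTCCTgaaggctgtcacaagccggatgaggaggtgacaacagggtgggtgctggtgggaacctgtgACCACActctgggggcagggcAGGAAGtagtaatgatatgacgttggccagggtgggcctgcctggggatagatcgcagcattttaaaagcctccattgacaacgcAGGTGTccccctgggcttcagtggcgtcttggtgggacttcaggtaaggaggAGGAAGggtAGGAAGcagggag
Gzma: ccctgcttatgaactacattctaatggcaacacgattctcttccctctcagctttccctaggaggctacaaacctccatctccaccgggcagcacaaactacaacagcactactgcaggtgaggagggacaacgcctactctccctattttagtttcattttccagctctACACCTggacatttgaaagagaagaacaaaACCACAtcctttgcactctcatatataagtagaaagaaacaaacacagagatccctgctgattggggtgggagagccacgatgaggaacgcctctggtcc
The Cd8a window holds none of the 3 words, Prf1 holds 1 RUNX, 1 T-box and 4 ETS matches, and Gzma holds 1 RUNX and 1 T-box match. Of 32851 promoters of the same length, 16.8% hold the RUNX word, 13.7% the T-box word and 35.4% the ETS word. A match is a run of letters and does not show that a factor binds there. T-bet (Tbx21) itself was 8.65 and 8.54 in the 2 tumours with Prf1 above background, below their limits of 12.4 and 8.57.

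Granzyme A, Gzma, a granzyme with trypsin-like specificity made by cytotoxic T cells and NK cells, was above background in 23 tumours, often narrowly. In ENT+CTLA4+aHer2 it measured 28.9 and 25.8, and in ENT+PD1+CTLA4 24.9, 20.3, 17.9 and 11.9 (replicates 1, 2, 5 and 6). The last of these, with a limit of 12.5, was the single value not above the limit. In ENT+CTLA4 it measured 21.6, 14.6, 14.6 and 15.5, in ENT+PD1 46.0, 17.2, 41.0 and 31.1, and in the repeat-titled pair 13.2 and 13.7. ENT tumours had 22.4, 14.7, 26.2 and 27.3, and vehicle tumours 36.0, 24.3, 16.8 and 23.98. ENT+PD1 replicates 1, 5 and 6 were among the high ones, and the ENT+CTLA4 arm had the lowest mean of the arms compared (16.6 ± 3.35, SD, n = 4).

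Gzma was not called in any of the 10 pairwise comparisons by limma. The genes tested were the 621 that reached 20 in at least 4 samples, which among the 7 named here left Gzma, Ctsw and Ifng, and p-values were adjusted over all 621. The largest difference of Gzma was ENT+PD1+CTLA4 minus ENT+PD1, 18.7 ± 5.40 and 33.8 ± 12.7 (SD, n = 4 each), a log2 change of -0.78 ± 0.30 (SE, limma adjusted p = 0.169). In that comparison 3.22% of all genes were called. Without ENT+PD1 replicate 2 the change was -1.06 and passed (limma adjusted p = 0.0246). With cartridge as a block, and the repeat-titled pair counted as ENT+PD1, it became 0.41 (limma adjusted p = 0.810), so its direction is not settled. The same block turned the Gzma change of ENT+CTLA4 minus vehicle from -0.55 ± 0.30 into 0.63, where 1.45% of genes were called. That block rests on the 2 repeat-titled samples alone, which were 13.2 and 13.7 against 17.2 to 46.0 in the 4 ENT+PD1 tumours of the first cartridge.

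Within the first cartridge, Gzma was 33.8 ± 12.7 in ENT+PD1 tumours and 22.6 ± 5.69 in ENT tumours (log2 change 0.51 ± 0.30, limma adjusted p = 0.318, with 0.322% of genes called). Against vehicle (25.3 ± 7.94) the change of ENT+PD1 was 0.37 ± 0.30 (limma adjusted p = 0.594) and that of ENT -0.14 ± 0.30 (limma adjusted p = 0.999). Neither of those 2 comparisons called any gene (0%), with 60 and 29 genes at unadjusted p under 0.05. Within the second cartridge, ENT+PD1+CTLA4 minus ENT+CTLA4 was 0.14 ± 0.30 (limma adjusted p = 1.00, 0% of genes called, 10 genes at unadjusted p under 0.05). ENT+CTLA4+aHer2 minus ENT+CTLA4 was 0.71 ± 0.37 (limma adjusted p = 0.321, with 2.25% of genes called). There the groups did not overlap (28.9 and 25.8, against 14.6 to 21.6), which held in that direction for 22.5% of all genes.

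Granzyme B was at background everywhere but in 1 tumour, including the arm with its highest value. That value, 19.9 in ENT+PD1 replicate 5, was below a limit of 25.3. The ENT tumours (4.03 to 5.83) all lay below the vehicle tumours (6.92 to 9.99), as for 5.45% of all 770 genes in that direction, but all 8 values were below their limits, so no direction was read from them. The other granzymes on the table were seldom above background either: Gzmk exceeded the limit in 0 of 24 tumours (at most 9.72) and Gzmm in 1. Fasl, the death ligand of killer cells, exceeded it in 1.

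Interferon gamma, Ifng, was below its limit in most tumours, at 0.18 to 1.62 times the limit (median 0.88). In ENT+CTLA4+aHer2 it measured 13.6 and 12.9, and in ENT+PD1+CTLA4 11.9, 11.5, 4.06 and 8.65 (replicates 1, 2, 5 and 6). In ENT+CTLA4 it measured 10.3, 6.25, 4.56 and 1.55, in ENT+PD1 18.4, 12.3, 26.9 and 20.8, and in the repeat-titled pair 5.08 and 14.9. ENT tumours had 7.77, 10.8, 14.1 and 21.3, and vehicle tumours 26.3, 11.4, 5.04 and 9.13. The 7 values above their limits were ENT+PD1+CTLA4 replicate 2, ENT+CTLA4 replicate 1, ENT+PD1 replicates 5 and 6, repeat-titled sample 2, ENT replicate 4 and vehicle replicate 1. The 2 tumours with CD8 signal were not among them.

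Ifng passed the filter through exactly 4 tumours at 20 or more, and no comparison called it. These were vehicle replicate 1, ENT replicate 4 and ENT+PD1 replicates 5 and 6, all on the first cartridge and none in an anti-CTLA-4 arm. The filter thus favoured high values on the first cartridge, so the differences of Ifng across the cartridges are descriptions only. ENT+PD1+CTLA4 and ENT+PD1 averaged 9.02 ± 3.60 and 19.6 ± 6.07 (SD, n = 4 each), a log2 change of -1.08 ± 0.48 (limma adjusted p = 0.239). The groups did not overlap, as for 7.73% of all genes in that direction, but the lower group was mostly below its limits. ENT+CTLA4 (5.65 ± 3.63) minus vehicle (13.0 ± 9.27) was -1.04 ± 0.48 (limma adjusted p = 0.278) and minus ENT (13.5 ± 5.81) -1.23 ± 0.48 (limma adjusted p = 0.247, with 0% of genes called and 94 at unadjusted p under 0.05). These 3 comparisons cross the cartridges. With cartridge as a block they became -0.06, -0.03 and -0.22. Within a cartridge, ENT+CTLA4+aHer2 minus ENT+CTLA4 was 1.29 ± 0.59 (limma adjusted p = 0.233), and ENT+PD1 minus ENT was 0.54 ± 0.48 (limma adjusted p = 0.460). The groups of the first of these did not overlap, as for 22.5% of all genes in that direction, but both ENT+CTLA4+aHer2 values and 3 of the 4 ENT+CTLA4 values were below their limits.

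**Figure D4:**
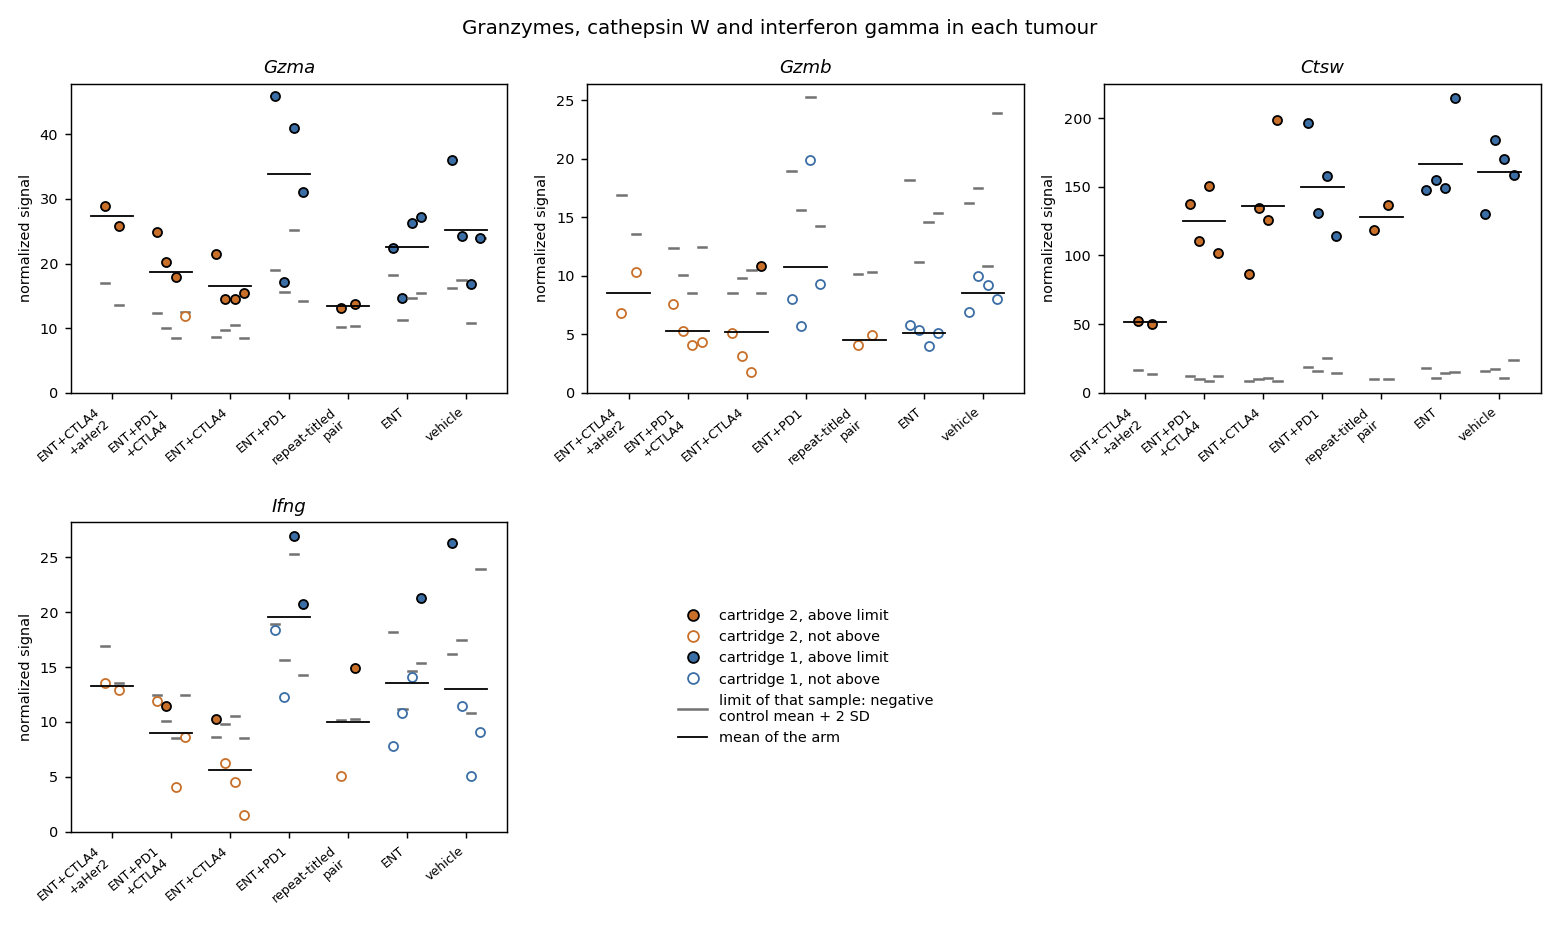
Normalized signal of Gzma, Gzmb, Ctsw and Ifng in each tumour, by arm, with grey dashes at each tumour's own limit, black lines at arm means and filled points above the limit. Ctsw is filled in all 24 tumours with its 2 lowest points (52.7 and 50.4) in ENT+CTLA4+aHer2, and Gzmb is filled in 1 tumour.

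Ctsw encodes cathepsin W, a cysteine protease of the papain family known from cytotoxic T cells and NK cells, and it was the one gene of the 7 well above background in every tumour. It measured 52.7 and 50.4 in ENT+CTLA4+aHer2, and 137, 110, 150 and 102 in ENT+PD1+CTLA4 (replicates 1, 2, 5 and 6). ENT+CTLA4 had 86.2, 134, 126 and 199, ENT+PD1 196, 131, 158 and 114, and the repeat-titled pair 119 and 137. ENT tumours had 148, 155, 149 and 215, and vehicle tumours 130, 184, 170 and 159. Both ENT+CTLA4+aHer2 tumours were the lowest of the 24, and the other arms overlapped one another. By mean, the order ran from ENT (167 ± 32.2) through vehicle (161 ± 23.0), ENT+PD1 (150 ± 36.0), ENT+CTLA4 (136 ± 46.7), the repeat-titled pair (128 ± 12.8) and ENT+PD1+CTLA4 (125 ± 22.8) to ENT+CTLA4+aHer2 (51.5 ± 1.65). Only the last step was larger than the SDs of both neighbours.

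Ctsw fell in ENT+CTLA4+aHer2 to 51.5 ± 1.65 (SD, n = 2), against 136 ± 46.7 (SD, n = 4) in ENT+CTLA4, both on the second cartridge. The log2 change was -1.33 ± 0.27 (SE, limma adjusted p = 0.0249), while 2.25% of all genes were called and the median gene moved by 0.17. The groups did not overlap, as for 6.28% of all genes in that direction. The call rests on few samples. It was lost without ENT+CTLA4 replicate 5 (limma adjusted p = 0.0638), without ENT+CTLA4 replicate 6 (0.0711) or without ENT+CTLA4+aHer2 replicate 2 (0.109), under either other scaling (0.0603 and 0.0591), in a fit of the compared groups only (0.191) and with the replicate block (0.0983), while the change itself stayed between -1.55 and -1.12.

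Beside the Ctsw fall, the same 2 tumours had these values. Their summed gene signal was 226864, the lowest of the 24, and 311821 steps. The 4 neutrophil markers on the table summed to 12489 and 1864 in ENT+CTLA4+aHer2, against 825 to 1724 in ENT+CTLA4, and the 2 mast cell markers to 71.4 and 93.0, against 111 to 167. No tested gene of either list was called (0 of 3 and 0 of 2). The 6 markers of tumour epithelium summed to 9791 and 7416, against 8319 to 10559 in ENT+CTLA4, so the groups overlapped. Of these, 1 of 6 was called, the integrin Itgb4 (log2 change -0.996 ± 0.255, limma adjusted p = 0.0472), and their median log2 change was -0.02, against 0.17 over all genes tested. The 3 CD3 genes and the CD8 chains summed to 90.1 and 225 in ENT+CTLA4+aHer2 and to 35.4 to 416 in ENT+CTLA4. The part of these cell markers in the Ctsw fall was not tested.

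The Ctsw level was not highest where Cd3g was, although ENT+CTLA4 replicate 6 ranked 2 of 24 in both (199 and 179). ENT+PD1+CTLA4 replicate 1, with the highest Cd3g, had 137 for Ctsw, close to the median of 137 over all 24 tumours, and ENT replicate 4, with the highest Ctsw (215), had 13.6 for Cd3g, below its limit of 15.4. Among 618 other genes, the 3 whose values ranked most like Ctsw over the 24 tumours were Plau, the urokinase protease (Spearman rho 0.66), Vim, the intermediate filament vimentin (0.65), and Btla, an inhibitory lymphocyte receptor (0.64). For Gzma they were Irgm2, an interferon-inducible GTPase (0.87), Cd28, the T cell costimulatory receptor (0.86), and Cxcl11, an interferon-induced chemokine (0.85). Within the cartridges the rho of Irgm2 with Gzma was 0.90 and 0.60, that of Cd28 0.78 and 0.74 and that of Cxcl11 0.83 and 0.63. For Ctsw with Btla it was 0.30 and 0.77. These are descriptions over samples that share cartridges and background levels.

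No test across all arms called Gzma, Ctsw or Ifng. In limma's F test over the 5 arms with 4 tumours, 3.22% of genes were called (limma adjusted p = 0.269 for Gzma, 0.550 for Ctsw and 0.159 for Ifng). The interaction term for both antibodies, which asks whether the arm with both differs from the sum of the single additions, called 0% of genes (42 at unadjusted p under 0.05), with limma adjusted p = 0.755 for Gzma, 0.898 for Ctsw and 0.907 for Ifng. ENT+PD1+CTLA4 minus vehicle (2.09% of genes called) and minus ENT (0%, 70 genes at unadjusted p under 0.05) called none of the 3 either. Without the filter, the 4 genes at background could be tested as well, and no comparison called Cd8a, Cd8b1, Gzmb or Prf1. The share of all 770 genes called in that setting was 0.260% in ENT+PD1 minus ENT, 1.56% in ENT+CTLA4 minus vehicle, 2.08% each in ENT+PD1+CTLA4 minus vehicle and ENT+CTLA4+aHer2 minus ENT+CTLA4, 2.21% in ENT+PD1+CTLA4 minus ENT+PD1, 3.12% in the F test and 0% elsewhere.

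**Figure D5:**
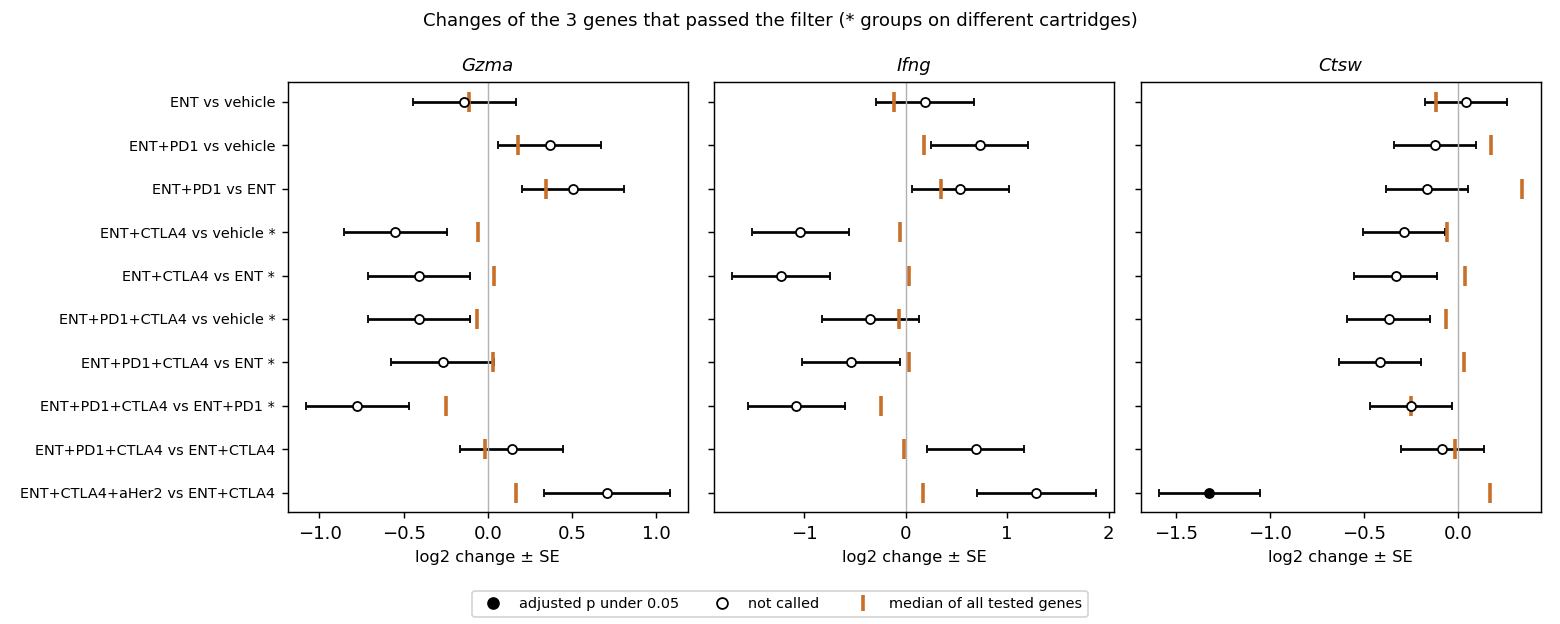
Log2 change ± SE (limma) of Gzma, Ifng and Ctsw in the 10 pairwise comparisons, with the median change of all 621 tested genes as an orange bar and a star where the arms ran on different cartridges. The single filled point, Ctsw in ENT+CTLA4+aHer2 against ENT+CTLA4 at -1.33, has an adjusted p under 0.05.

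Other genes of killing and of its regulation were measured beside the 7. Of 28 other cytotoxic lymphocyte genes measured, 14 were tested, and 0 to 2 of them were called in each pairwise comparison. In limma's F test, where 3.22% of all genes were called, 3 of the 14 were: Cd160, Sh2d1b1 and Cd244. The limma adjusted p of Cd244 was 0.0434, in a test that spans both cartridges. Cd160, an NK and CD8 T cell receptor, was 23.8 ± 4.75 in ENT+CTLA4+aHer2 (n = 2), 8.73 ± 2.60 in ENT+PD1+CTLA4, 6.70 ± 2.22 in ENT+CTLA4, 26.5 ± 10.1 in ENT+PD1, 15.6 ± 0.353 in ENT and 23.4 ± 4.07 in vehicle (SD, n = 4 for these 5 arms). It rose in ENT+CTLA4+aHer2 against ENT+CTLA4 (1.72 ± 0.37, limma adjusted p = 0.0249), opposite to Ctsw in the same tumours. Sh2d1b1, an adaptor of NK cell activation, rose there too (36.8 ± 0.870 against 12.2 ± 3.93, limma adjusted p = 0.0251). Of the 14, 11 were higher and 3 lower in that comparison, with a median of 0.56 against 0.17 over all genes. The 2 calls among the 14 stand beside 2.25% of all genes called there. Across the cartridges, Cd160 was lower in ENT+CTLA4 than in vehicle (-1.70 ± 0.30, limma adjusted p = 0.0117). It was 1 of the 14, against 1.45% of all genes called. Cd160 and Sh2d1b1 were lower in ENT+PD1+CTLA4 than in ENT+PD1 (limma adjusted p = 0.0108 each) and vehicle (0.0355 and 0.0357). These were 2 of the 14 in each comparison, against 3.22% and 2.09% of all genes called. Cd160 averaged 6.70 in ENT+CTLA4, under that arm's limits of 8.57 to 10.5, and 8.73 in ENT+PD1+CTLA4, with limits of 8.54 to 12.5. Of 17 other settings, 7 and 9 called no gene in the comparisons of ENT+CTLA4 and ENT+PD1+CTLA4 with vehicle. In ENT+PD1+CTLA4 minus ENT+PD1, 4 other settings called no gene. Within the first cartridge, Klrk1, which encodes the activating receptor NKG2D, was the 1 of the 14 called in ENT+PD1 minus ENT (limma adjusted p = 0.0400, with 0.322% of all genes called). All 4 ENT values of Klrk1 were below their limits, and 12 of 17 other settings called no gene in this comparison.

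T cell genes gave no call in any comparison, with 14 of 18 tested. Their median change was 0.86 in ENT+PD1 minus ENT (13 of 14 higher, against a median of 0.34 over all genes) and 0.78 in ENT+CTLA4+aHer2 minus ENT+CTLA4 (12 of 14 higher, against 0.17). The CD3 genes and CD8 chains summed to 93.1, 56.3, 240 and 270 in ENT+PD1 (replicates 1, 2, 5 and 6), against 50.5 to 95.8 in ENT. Only replicates 5 and 6 were above the ENT range. Of 24 genes of interferon gamma sensing and response 21 were tested, and 1 was called in any comparison, in one where 2.25% of all genes were called. Psmb9, an immunoproteasome subunit, rose in ENT+CTLA4+aHer2 to 122 ± 4.45 (n = 2), against 48.8 ± 8.29 (n = 4) in ENT+CTLA4 (1.32 ± 0.31, limma adjusted p = 0.0344), with 17 of 21 higher. In that comparison, which also holds the rises of Cd160 and Sh2d1b1, 6 of 15 other settings called no gene. Cxcl9, a chemokine induced by interferon gamma, was 61.2 and 116 there, against 1.00 to 32.8 in ENT+CTLA4 (limma adjusted p = 0.0583). In ENT+PD1 minus ENT all 21 were higher (median 0.43, against 0.34 over all genes) and none was called. On the side of the target, 8 death receptor and caspase genes were tested and none was called.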

How the data were processed

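The deposited table holds normalized signal for 770 genes and 14 control probes in 24 samples. In each sample 97.9% or more of the gene values were whole multiples of 1 step (tolerance 0.05), the housekeeping geometric mean was 346.9, and 82 values were exactly 1, while the control probes were not scaled. The labels' protocols name the nCounter XT assay. The submitters' processing notes name limma with its version not given in the sources used here, nor its role. Control counts were multiplied by each sample's step to set the limit (mean plus 2 SD, 8 negative probes). Genes with a signal of 20 or more in at least 4 samples were tested on log2(signal + 1) with limma 3.58.1 (R 4.3.3), 22 samples in 6 groups, Benjamini-Hochberg over 621 genes, threshold 0.05. Fold changes of low genes are understated on that scale. The fits were tested on simulated data. The 7 genes and all lists were chosen with earlier results of these data known. Genes are named as the 7, as called members of the lists, as the 3 most alike by rank, or as markers, and other names were chosen after their values were seen. Promoter sequences are RefSeq's.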

Additional observations from a re-analysis of the deposited data

Results flagged for a closer look

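In 4 of 35 groups tested (7 genes in the 5 arms of 4 tumours) 1 tumour stood far from the other 3. Chance gives about 1 in 20 for independent, normally distributed values. These signals were not log-transformed, many were below their limits, and the Cd8a and Prf1 cases are the same tumour, so no excess over chance is read. Cd8a was 51.91 in ENT+PD1+CTLA4 replicate 1, against 3.24 to 6.5 in the other tumours of the arm, and Prf1 in the same tumour was 15.14, against 3.25 to 4.41. Gzma was 21.55 in ENT+CTLA4 replicate 1, against 14.6 to 15.5 in the others. Ctsw was 214.7 in ENT replicate 4, against 148 to 155 in the others.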

How the results depend on the processing

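Of 223 recounts of how many of the 7 genes were called, over 12 tests, 215 left the count as it was and 8 changed it. Every test but ENT+CTLA4+aHer2 minus ENT+CTLA4 began at 0, and only 3 of the 7 genes passed the filter, so most recounts had little room to change. In the test that began at 1, 7 recounts changed the count and 8 did not. In ENT+CTLA4+aHer2 minus ENT+CTLA4 the count of 1 (Ctsw) became 0 under median rescaling, quantile normalization, a fit of the compared groups only and the replicate block, and ran from 0 to 1 with single samples left out. Its adjusted p over all settings ran from 0.00363 to 0.191. Without the 2 tumours with CD8 signal (added after seeing the data) Ctsw was called (-1.12, limma adjusted p = 0.0398). In ENT+PD1+CTLA4 minus ENT+PD1 the count of 0 ran from 0 to 1 with single samples left out (Gzma, without ENT+PD1 replicate 2). Leaving out ENT+PD1 replicates 5 and 6 (also added later) called none of the 7. With the limit at the mean of the negative controls, 94 of 168 values exceeded it in place of 61. The replicate number as a block (the replicate block) changed no other count. Deviations from the arm mean in samples with the same number had a median correlation of -0.03 over 40 pairs (-0.45 to 0.63). Of these pairs, 14 were above 0.1. Pairs with different numbers were not compared.

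Counts over all genes moved more. With single samples left out they ran from 0 to 22 in ENT+CTLA4 minus vehicle (9 as reported), from 0 to 18 in ENT+PD1+CTLA4 minus vehicle (13), from 2 to 69 in ENT+PD1+CTLA4 minus ENT+PD1 (20), from 0 to 26 in ENT+PD1 minus ENT (2), from 0 to 23 in ENT+CTLA4+aHer2 minus ENT+CTLA4 (14) and from 6 to 57 in the F test (20). Under the other settings these counts reached 12, 17, 43, 3, 19 and 29 at most and 0 at least, and ENT+CTLA4 minus ENT reached 46 (0 as reported). The cause was not tested. The count-model tests that had been planned were not run, because whole counts could not be recovered for every sample. Signals near the negative controls limit Cd8a, Cd8b1, Gzmb, Prf1 and most Ifng values, and 2 tumours in ENT+CTLA4+aHer2 limit that arm.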
